A study of Mus musculus with 4 samples.

Results

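The nuclear genes for oxidative phosphorylation were examined in mouse embryonic stem cells that had lost or kept the microRNA cluster miR-290 to miR-295. They were chosen by symbol and annotation alone: protein-coding genes of GENCODE vM21 whose symbols name a subunit of respiratory complexes I to IV or of ATP synthase (complex V). The rule took 85 of the 55421 gene identifiers in the count table, with 84 distinct symbols, since Atp5o is listed under a pair of identifiers. By complex, 36 belonged to complex I, 4 to complex II, 9 to complex III, 18 to complex IV and 17 to complex V. The remaining gene, Atp5s, encodes a coupling factor and is not a subunit. Ndufa4 was placed in complex IV, where its protein has been found, and not in complex I, as its symbol would have it.

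Knockout cells that lack the cluster (KO, 2 libraries) were set against wild-type cells that carry it (WT, 2 libraries). Both were embryonic stem cells of the E14 line, which has a 129/Ola background and comes from the blastocyst, and both were cultured on gelatin with serum and LIF, the cytokine that keeps mouse embryonic stem cells undifferentiated. Messenger RNA was read by a 3′ tag method, in which a transcript gives reads near its poly(A) end whatever its length. Biological duplicates are named in the series' design text, but no label tells whether KO 1 and KO 2 are separate clones. The p-values therefore speak only for the variation among these 4 libraries.

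Oxidative phosphorylation passes electrons from NADH (complex I) and succinate (complex II) through ubiquinone to complex III, then through cytochrome c to complex IV, which reduces oxygen. Complexes I, III and IV pump protons across the inner mitochondrial membrane, and complex V uses the proton gradient to make ATP. Mitochondrial DNA encodes a few core subunits, while the nucleus encodes all of complex II and most subunits of the other complexes, some of which have tissue-specific isoforms. Mouse embryonic stem cells in serum are known to draw on both glycolysis and respiration.

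The deleted cluster lies on chromosome 7 and gives several microRNAs with a common seed, bases 2 to 8, which pairs with messenger RNAs. The mature sequences of the 3 that share the seed AAGUGCU exactly are shown because their sites were searched for in the subunit genes. They are from RefSeq (GRCm38.p6), written 5′ to 3′ with the seed in capitals.
mmu-miR-291a-3p: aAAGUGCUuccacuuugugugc
mmu-miR-294-3p: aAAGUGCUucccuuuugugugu
mmu-miR-295-3p: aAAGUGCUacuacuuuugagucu

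Sites of 7 bases for this seed (AGCACTT, or GCACTTA where an A follows the site) were present in the longest annotated 3′ UTR of 6 of the 82 tested members, or 7.32% (95% Wilson interval 3.4% to 15.1%). Over all tested genes with a 3′ UTR the share was 20.9% (2604 of 12483). With the shortest annotated 3′ UTR the shares were 3.66% and 12%. The median longest 3′ UTR measured 199 bases in the members and 1164 bases over all tested genes. Of the sites, 5 are shown with the match in capitals and up to 10 bases of the 3′ UTR on either side, on the transcribed strand (GENCODE vM21, GRCm38).
Sdhd: cctgggtgcAGCACTTtgattgtgtg
Ndufs4: acgaaatcagAGCACTTAgagtttacca
Ndufb2: tcaattacatAGCACTTtttggggggt
Ndufb8: ctataatcccAGCACTTgggaggctga
Atp5g1: tagtaatcccAGCACTTggagtatgca

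The Sdhd site began at base 10 of a 728-base 3′ UTR. Ndufs4 held an 8-base match. The sites of Ndufb2 (base 3925 of 4012) and Atp5g1 (base 3675 of 4252) lay in long annotated 3′ UTRs. Sdhd fell in KO cells. The median log2 fold change was 0.16 over the 6 members with a site and 0.04 over the 76 tested members without one. Over all tested genes with a 3′ UTR the medians were 0.11 with a site and -0.02 without one. A match is a sequence description and not a measured binding site.

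The table held 12726123 and 11764868 counts in the KO libraries and 12163759 and 9925557 in the WT libraries. Mir295 had 0 counts in both KO libraries, against 80 and 22 in the WT libraries, as the genotype labels would have it. The other microRNA genes of the cluster had at most 7 counts in any library, and the antisense Mir290b had 4 counts in KO 1. Of the 85 members, 82 passed the filter on low counts and were tested. The others were Ndufs5 (8 and 5 counts in KO, 11 and 3 in WT), Cox8b (0 and 0 in KO, 1 and 0 in WT) and the second Atp5o identifier, a read-through gene with 0 counts in all 4 libraries. The 10 stem cell markers were present in every library, with a summed level of 3850 and 3960 CPM in KO and 3880 and 4170 CPM in WT. Of these, Fgf4 rose (log2 fold change 0.80) and Klf4 (-1.59) and Utf1 (-0.91) fell, while Pou5f1 had 401 and 430 counts in KO and 396 and 374 in WT. Of the 8 primitive endoderm markers 5 fell, and their summed level was 11 and 10.7 CPM (counts scaled to a common library size) in KO against 73.1 and 57.4 in WT. The part of this difference in the subunit values below was not tested.

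Transcripts of the subunit genes as a group stood at nearly the same level in KO and WT cells. Their share of all counts was 2.15% and 2.13% in the KO libraries and 2.07% and 2.1% in the WT libraries. By edgeR's quasi-likelihood test with Benjamini-Hochberg adjustment over all 14427 tested genes, at an adjusted p below 0.05, 3 of the 82 tested members rose, among them Cox6a2 and Sdha. Another 3 fell (Sdhd, Atp5g2 and Cox8c). Over all tested genes, 7.42% rose, 4.96% fell and 12.4% changed in either direction, so the members' share of 7.32% was below the background. In these bulk libraries, fewer cells that express a gene and less RNA per cell cannot be told apart.

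The median log2 fold change of the 82 members was 0.04, with the middle 50% of values between -0.17 and 0.17, and 48 were positive and 34 negative. Over all tested genes the median was -0.01 and the middle 50% ran from -0.36 to 0.38. The groups did not overlap for 51 of the 82 members (62.2%), with KO above WT for 27 and below it for 24, against 57.9% of all genes. The members were highly expressed, with 59 of 82 (72%) in the top 10% of tested genes by mean CPM. Their median standard error was 0.15, against 0.27 over all genes. For 73 of the 82, the 95% interval of the fold change lay within a 2-fold change in either direction.

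The counts of calls moved with single libraries. Without KO 1, or without KO 2, 1 member rose and 1 fell. Leaving out WT 1 gave 2 risen and 5 fallen members, and leaving out WT 2 gave 6 and 3. Cox6a2 was called in each of these fits. The DESeq2 test called 6 members, of which 5 were shared, with Cox4i2 in place of Cox8c.

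**Figure D1:**
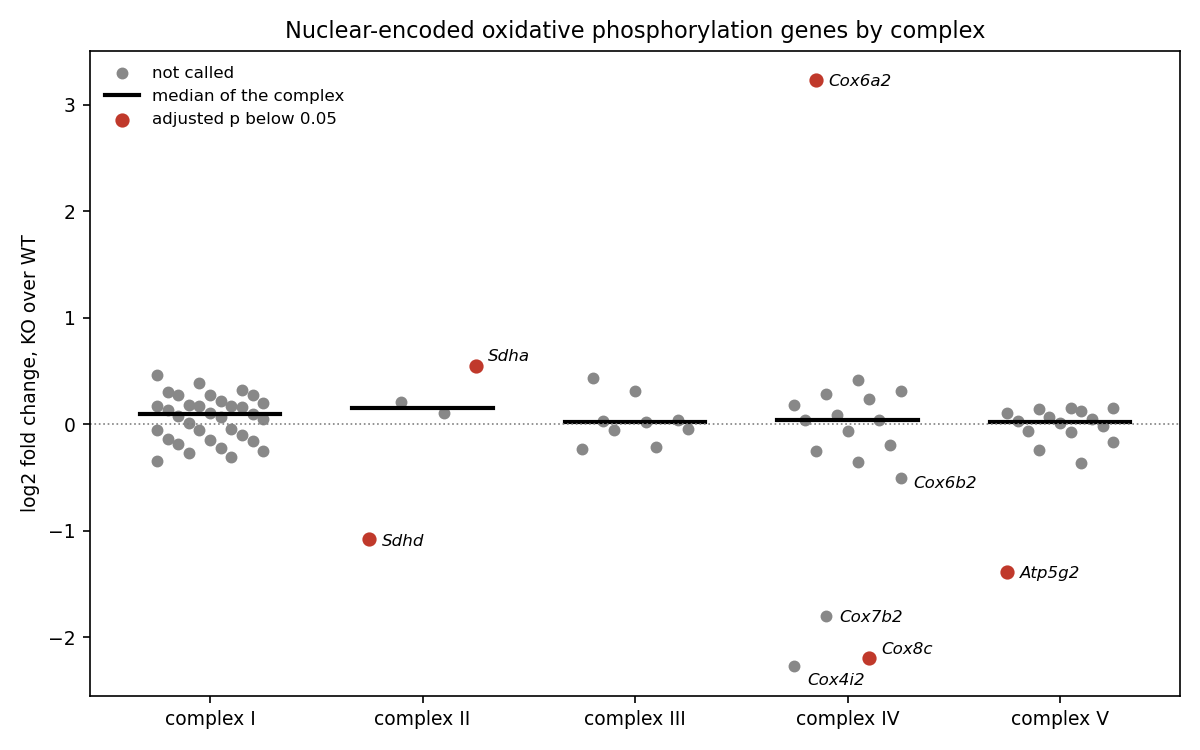
Log2 fold change, KO over WT, of the nuclear subunit genes, by complex; red points were called (edgeR, adjusted p under 0.05), grey points were not, and bars are medians over the tested genes. The medians lie between 0.02 and 0.16, and the points far from 0 are Cox6a2 at 3.23 and a few genes below -1.

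Complex I, the entry point for electrons from NADH, differed little. The median log2 fold change of its 35 tested genes was 0.1, and 22 were positive and 13 negative. Its 8 genes of the NADH-oxidising module (Ndufv1, Ndufv2, Ndufv3, Ndufs1, Ndufs4, Ndufs6, Ndufa2 and Ndufa12) had a median of 0.15 and 0 calls by edgeR or DESeq2, with 1 below an unadjusted p of 0.05 (edgeR).

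Some chromosomes were shifted as a whole. The 889 tested genes of chromosome 1 had a median log2 fold change of 0.27, KO over WT, and they also differed within the WT group, with a median of -0.26 for WT 1 over WT 2. With each gene's chromosome median subtracted, the complex I median was 0.03 in place of 0.1. The part of this shift in the members' values was not tested further.

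Several complex I genes lay further from 0 without passing the test. Ndufb2, an accessory subunit of the membrane arm, stood at 102 and 104 CPM in KO and 69.1 and 80.2 CPM in WT. Its groups did not overlap. The log2 fold change was 0.46 (SE 0.16, adjusted p 0.0938, edgeR), and 0.57 with an adjusted p of 0.0341 without WT 2. With any other library left out the adjusted p was 0.185 to 0.414. Its 3′ end overlaps that of Braf on the opposite strand (640 and 605 counts in KO, 654 and 635 in WT), and the strand setting of the counting is not given in the sources used here.

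Ndufs6, a zinc-binding subunit of the NADH module, measured 223 and 231 CPM in KO and 178 and 169 CPM in WT. Ndufs4, an accessory subunit whose human gene is mutated in Leigh syndrome, measured 172 and 179 CPM in KO and 137 and 152 CPM in WT. For both genes KO stood above WT in every library, and neither was called, with adjusted p values of 0.106 and 0.257 (edgeR).

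On the other side, Ndufa7 measured 268 and 257 CPM in KO and 321 and 347 CPM in WT, with a log2 fold change of -0.35 (SE 0.14, adjusted p 0.132, edgeR). It was the lowest value of the complex, in an accessory subunit of the peripheral arm. Ndufa2, the gene of the complex with the most counts, measured 326 and 356 CPM in KO and 306 and 257 CPM in WT. These groups lay close together without overlap (log2 fold change 0.28, SE 0.15, adjusted p 0.261, edgeR). Ndufb8, whose protein is widely used as a marker of assembled complex I and which holds a seed site, measured 261 and 260 CPM in KO and 293 and 302 CPM in WT (log2 fold change -0.19, adjusted p 0.404, edgeR).

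Complex II, succinate dehydrogenase, is encoded by 4 nuclear genes and also serves the citric acid cycle. Its genes moved apart: Sdha rose, Sdhd fell, and Sdhb and Sdhc did not pass the test. The median log2 fold change of the 4 was 0.16.

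Sdhd encodes the small membrane anchor that helps to bind ubiquinone and haem. It lies on GRCm38 chr9:50596357-50603812, minus strand. Its level was 56.4 and 42.6 CPM in the KO libraries and 122 and 87.8 CPM in the WT libraries. Both KO values were below both WT values, although the libraries within each group differed too. The means were 49.5 ± 9.78 CPM in KO and 105 ± 24.1 CPM in WT (SD, n = 2 each), 2.12-fold lower in KO. Its log2 fold change was -1.08 (SE 0.22, adjusted p 0.0137, edgeR's quasi-likelihood test), and -0.89 without KO 2, when the adjusted p was 0.0843.

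Sdha encodes the flavoprotein that oxidises succinate, on chr13:74322254-74350280, minus strand. It measured 241 and 238 CPM in KO and 147 and 181 CPM in WT. The KO libraries nearly coincided and stood above both WT libraries. Its log2 fold change was 0.55 (SE 0.16, adjusted p 0.0491, edgeR), a 1.46-fold difference that passed the threshold narrowly. The adjusted p was 0.0528 with DESeq2 size factors and 0.0539 after thinning to equal depth. It was 0.25 without KO 1, 0.229 without KO 2 and 0.0937 without WT 1.

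Sdhc, the large membrane anchor and the partner of the Sdhd protein, measured 181 and 183 CPM in KO and 168 and 147 CPM in WT. Its KO values lay above its WT values, in the opposite direction to Sdhd, and it was not called (log2 fold change 0.21, SE 0.15, adjusted p 0.404, edgeR). It lies on the shifted chromosome 1, whose median log2 fold change of 0.27 was above its own value. Sdhb, the iron-sulphur subunit, measured 231 and 254 CPM in KO and 220 and 233 CPM in WT, and its groups overlapped (log2 fold change 0.1, adjusted p 0.695, edgeR).

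Counts of Sdhd per count of Sdha were 0.234 and 0.179 in the KO libraries and 0.83 and 0.487 in the WT libraries. Counts of Sdhd per count of Sdhc were 0.312 and 0.232 in KO and 0.725 and 0.598 in WT. Both ratios were lower in both KO libraries than in either WT library. This follows from the levels of Sdhd, Sdha and Sdhc given above and is not separate evidence. The ratios compare libraries and not the amounts of the transcripts, since tag yield can differ between genes. No near-identical copy and no gene overlapping its 3′ end was found for Sdhd or Sdha.

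**Figure D2:**
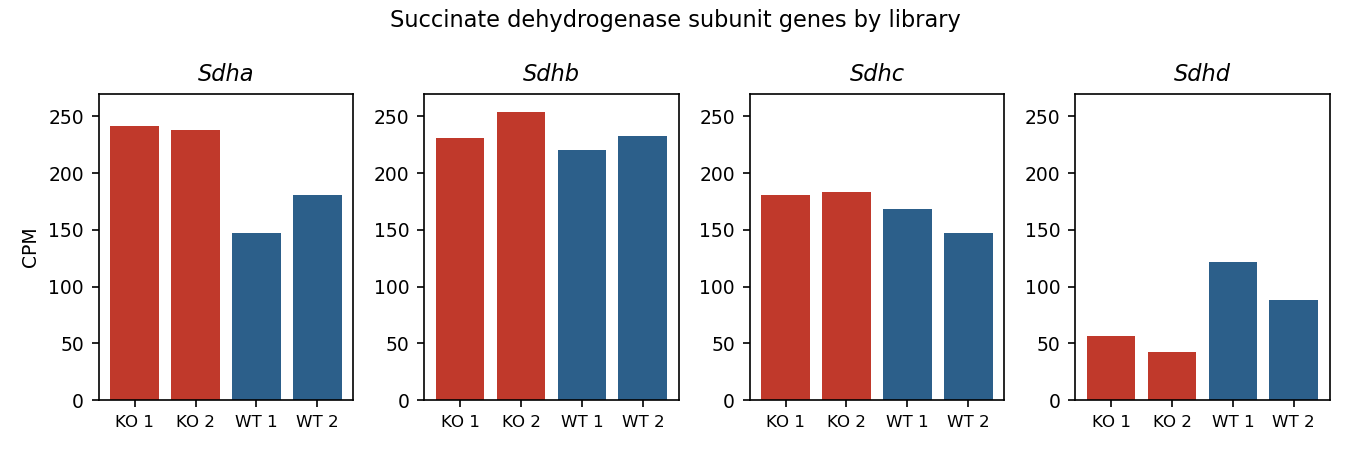
CPM of the 4 succinate dehydrogenase subunit genes in each library (bars, KO in red and WT in blue, axis from 0). Sdha is higher and Sdhd lower in both KO libraries, at 56.4 and 42.6 CPM against 122 and 87.8 CPM for Sdhd in WT, while Sdhb overlaps between the groups.

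Complex III, which passes electrons from ubiquinol to cytochrome c, had 0 of its 9 tested genes called by edgeR's quasi-likelihood test, with 2 below an unadjusted p of 0.05 and 0 called by DESeq2. The median log2 fold change was 0.02, with a range of -0.23 to 0.43. Uqcrq, a small subunit of the complex and its gene with the most counts, measured 599 and 642 CPM in KO and 447 and 474 CPM in WT. Its KO values stood clear of its WT values (log2 fold change 0.43, SE 0.13, adjusted p 0.0649, edgeR). It passed without WT 2 (0.47, adjusted p 0.0396) and with no filter on low counts (0.44, adjusted p 0.0335), and with any other library left out the adjusted p was 0.0932 to 0.391.

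Uqcrh, the hinge protein that helps cytochrome c to dock, measured 429 and 418 CPM in KO and 344 and 337 CPM in WT. The groups were separated and the gene was not called (log2 fold change 0.31, SE 0.13, adjusted p 0.156, edgeR). The catalytic subunits were not called either. Cyc1, cytochrome c1, averaged 164 ± 4.35 CPM in KO and 192 ± 15.2 CPM in WT, and Uqcrfs1, the Rieske iron-sulphur protein, averaged 145 ± 8.02 CPM in KO and 149 ± 25.1 CPM in WT (SD, n = 2 each), with adjusted p values of 0.338 and 0.898 (edgeR).

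Complex IV, cytochrome c oxidase, held the widest spread, and that spread came from its tissue isoforms. Of the 11 tested genes without the isoforms listed next, 0 were called by edgeR, with 2 below an unadjusted p of 0.05 and 0 called by DESeq2. Their median log2 fold change was 0.04 and their range -0.36 to 0.42. The isoforms are alternatives to a ubiquitous subunit: Cox4i2 (lung), Cox6a2, Cox7a1 and Cox8b (heart and skeletal muscle), and Cox6b2, Cox7b2 and Cox8c (testis). Of these 7 genes 6 were tested, 1 rose (Cox6a2) and 1 fell (Cox8c), and their median was -1.15. Their levels were low, with a median of 4.25 CPM, and their median standard error of 0.52 was above that of the other complex IV genes, 0.14.

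Cox6a2, the muscle isoform of subunit VIa, had the largest rise among the tested members. It lies on chr7:128205435-128206387, minus strand, and held 143 and 125 counts in the KO libraries and 20 and 6 in the WT libraries. In CPM these were 11.3 and 10.7 in KO and 1.67 and 0.597 in WT. The KO libraries were close to each other and far above the WT libraries, of which WT 2 was near the floor of 3 counts (0.302 CPM). The log2 fold change was 3.23 (SE 0.47, adjusted p 0.00345, edgeR's quasi-likelihood test), a 9.39-fold difference. With WT 1 left out it was 4.17 and with WT 2 left out 2.71, both called.

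Cox6a2 was a small part of its family in every library. It took 2.5% of the Cox6a1 and Cox6a2 counts in KO 1 (95% Wilson interval 2.13% to 2.94%) and 2.23% in KO 2 (1.87% to 2.65%), against 0.442% in WT 1 (0.286% to 0.681%) and 0.152% in WT 2 (0.0695% to 0.33%). The intervals cover counting error only and did not overlap between groups. Cox6a1, the ubiquitous isoform, measured 439 and 468 CPM in KO and 376 and 393 CPM in WT (log2 fold change 0.24, adjusted p 0.286, edgeR). Of 6 muscle and heart markers, 1 was tested and 0 were called by edgeR, with 0 below an unadjusted p of 0.05, and their summed level was 2.2 and 1.96 CPM in KO and 4.76 and 1.49 CPM in WT. Ckm, muscle creatine kinase, had 1 and 0 counts in KO and 1 and 0 in WT.

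Cox7a1, another muscle isoform, was not called. It measured 21.7 and 29.0 CPM in KO and 19.3 and 21.7 CPM in WT, so KO 1 and WT 2 had nearly the same level (log2 fold change 0.31, SE 0.23, adjusted p 0.432, edgeR). Its share of the Cox7a1 and Cox7a2 counts was 3.95% and 5.14% in KO and 3.69% and 4.19% in WT, and the groups overlapped. Cox7a2, the liver-type isoform, averaged 532 ± 4.78 CPM in KO and 500 ± 5.22 CPM in WT (SD, n = 2 each, adjusted p 0.705, edgeR).

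Cox8c, the testis isoform of subunit VIII, fell from a low level. It lies on chr12:102899316-102900526, plus strand, and held 6 and 9 counts in KO and 33 and 30 in WT. In CPM that was 0.472 and 0.768 in KO and 2.75 and 2.98 in WT, without overlap. The log2 fold change was -2.20 (SE 0.56, adjusted p 0.0347, edgeR), 4.58-fold lower in KO. The call was lost with any library left out: the adjusted p was 0.235 without KO 1, 0.108 without KO 2, 0.0634 without WT 1 and 0.0704 without WT 2. It was also lost with the DESeq2 test (adjusted p 0.0655). The ubiquitous Cox8a measured 218 and 224 CPM in KO and 249 and 181 CPM in WT, with overlapping groups.

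Cox4i2, the lung and hypoxia isoform of subunit IV, came close to the threshold. It held 4 and 16 counts in KO and 38 and 50 in WT, with a log2 fold change of -2.28 (SE 0.66, adjusted p 0.054, edgeR). DESeq2 called it (adjusted p 0.0374), and so did edgeR without KO 2 (-3.64, adjusted p 0.017) and without WT 1 (-2.58, adjusted p 0.0283). Without KO 1 (-1.56, adjusted p 0.25) and without WT 2 (-1.92, adjusted p 0.109) it was not called. It took 0.0438% and 0.22% of the Cox4i1 and Cox4i2 counts in KO and 0.57% and 0.902% in WT. Its ubiquitous partner Cox4i1 measured 718 and 619 CPM in KO and 553 and 547 CPM in WT, the opposite direction, and was not called (log2 fold change 0.28, adjusted p 0.218, edgeR).

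Of the testis isoforms, Cox7b2 held 10 and 3 counts in KO and 14 and 26 in WT (log2 fold change -1.80, SE 0.72, adjusted p 0.138, edgeR). Its KO libraries were the lower ones, with 3 counts at the floor in KO 2. Cox6b2, by contrast, was well expressed, at 58.8 and 90.4 CPM in KO and 67.9 and 144 CPM in WT. It differed as much within groups as between them, and without WT 1 it was called (log2 fold change -0.95, adjusted p 0.00772), against -0.50 and an adjusted p of 0.35 with all libraries (edgeR). Without WT 2 its value was 0.13 (adjusted p 0.747). It took 18.7% and 27.1% of the Cox6b1 and Cox6b2 counts in KO and 23.2% and 40.3% in WT.

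The summed level of the sperm and germ cell markers, most of it from Cyct alone, was lower in both KO libraries. Of 5 markers 2 were tested, 1 fell (Cyct) and Ldhc was not called (adjusted p 0.0817, edgeR). Their summed level was 3.7 and 6.66 CPM in KO and 11.5 and 20.1 CPM in WT. Of this, Cyct gave 2.91 and 5.55 CPM in KO and 9.51 and 15.2 CPM in WT. Prm1 and Prm2, the protamines that define late spermatids, had 0 counts in all libraries. The part of this difference in the testis isoforms was not tested.

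**Figure D3:**
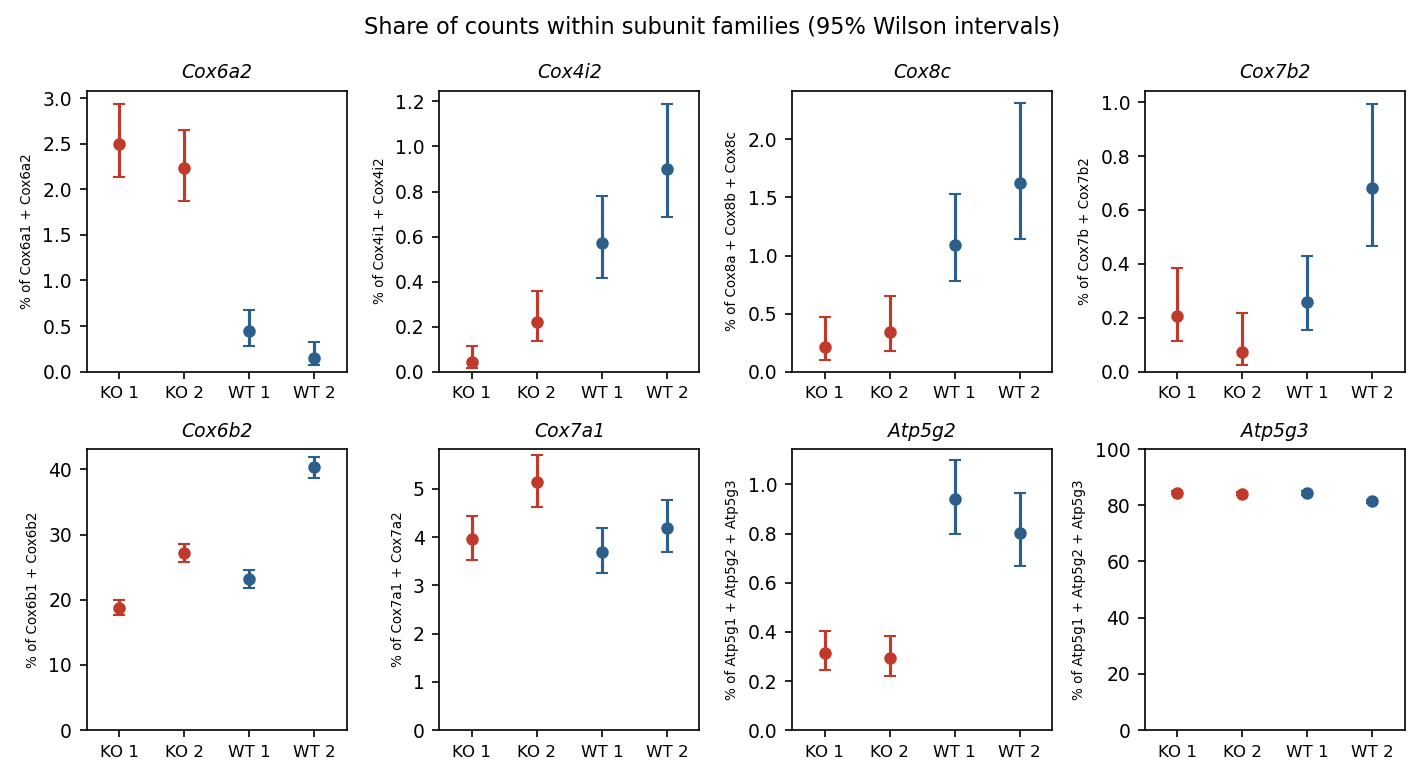
Share of each isoform in the counts of its subunit family, in percent, for each library (points, KO in red and WT in blue), with 95% Wilson intervals that cover counting error only. Cox6a2 is at 2.5% and 2.23% in KO against 0.442% and 0.152% in WT, while Cox4i2, Cox8c and Atp5g2 are lower in both KO libraries and Cox6b2 and Cox7a1 overlap.

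Among the ubiquitous complex IV genes, Cox7c had the most counts, at 1290 and 1210 CPM in KO and 1390 and 1220 CPM in WT. These values overlapped (log2 fold change -0.06, SE 0.13, adjusted p 0.807, edgeR). Cox5b measured 363 and 413 CPM in KO and 251 and 331 CPM in WT, separated and not called (log2 fold change 0.41, adjusted p 0.141, edgeR), and it lies on the shifted chromosome 1. Cox6c measured 703 and 730 CPM in KO and 987 and 850 CPM in WT (log2 fold change -0.36, adjusted p 0.12, edgeR). Without WT 2 both Cox5b and Cox6c were called. Ndufa4 measured 131 and 117 CPM in KO and 153 and 143 CPM in WT (log2 fold change -0.25, SE 0.15, adjusted p 0.313, edgeR).

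Complex V, ATP synthase, had 1 gene that stood apart. Of its 16 tested genes 0 rose and 1 fell (Atp5g2) by edgeR's quasi-likelihood test. The other 15 lay between -0.37 and 0.15 on the log2 scale, and the median of the 16 was 0.02. Of the catalytic subunits, Atp5b averaged 931 ± 4.56 CPM in KO and 981 ± 23.8 CPM in WT, and Atp5a1 averaged 813 ± 14.6 CPM in KO and 734 ± 19.4 CPM in WT (SD, n = 2 each), with adjusted p values of 0.748 and 0.5 (edgeR). Atp5d, the delta subunit of the central stalk, measured 156 and 170 CPM in KO and 187 and 232 CPM in WT. It did not pass (log2 fold change -0.37, SE 0.16, adjusted p 0.172, edgeR) and was called without WT 1 (-0.52, adjusted p 0.0352). Without WT 2 it stood at -0.20 (adjusted p 0.432).

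The c-ring of ATP synthase is made from 1 mature protein that Atp5g1, Atp5g2 and Atp5g3 all encode, with different import signals. Atp5g2, on chr15:102662864-102672352, minus strand, held 60 and 50 counts in KO and 148 and 113 in WT. In CPM these were 4.72 and 4.27 in KO and 12.4 and 11.2 in WT, well apart. The log2 fold change was -1.39 (SE 0.31, adjusted p 0.0204, edgeR's quasi-likelihood test), 2.62-fold lower in KO. Its adjusted p was 0.0768 without KO 1 and 0.112 without KO 2. Chromosome 15 had a median log2 fold change of -0.15, and less that median the value was -1.24.

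Atp5g2 gave under 1% of the c-ring counts in every library, with 0.313% and 0.292% in KO and 0.939% and 0.802% in WT. Atp5g3 gave most of them: 84.5% and 84.1% in KO and 84.3% and 81.4% in WT, overlapping. Atp5g3 measured 1280 and 1230 CPM in KO and 1110 and 1140 CPM in WT (log2 fold change 0.15, adjusted p 0.471, edgeR), and Atp5g1 measured 230 and 228 CPM in KO and 194 and 250 CPM in WT (0.05, adjusted p 0.883). Atp5g2 has 3 near-identical annotated copies of its 3′ end, so its counts are uncertain by whatever reads those copies took or gave. The copies together held 10 and 12 counts in KO and 14 and 17 in WT.

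**Figure D4:**
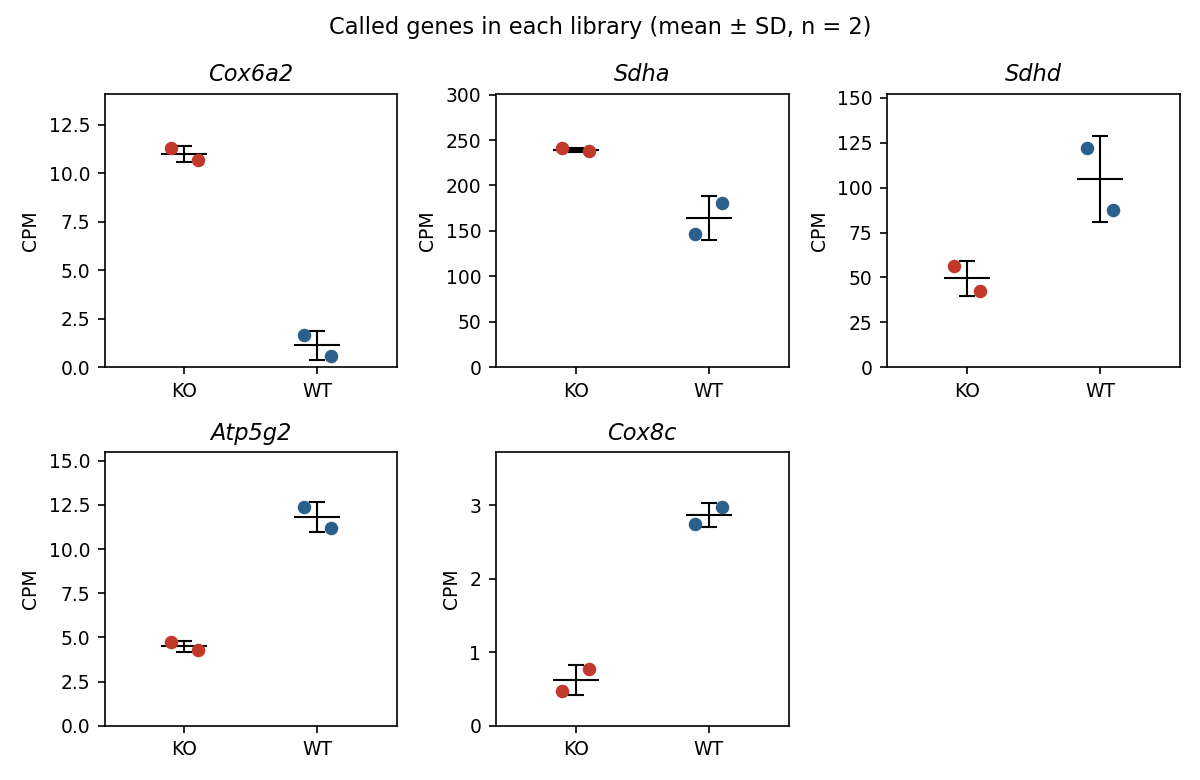
CPM of Cox6a2, Sdha, Sdhd, Atp5g2 and Cox8c in each library (points), with the mean and SD of each group (n = 2 each), KO left of WT and each axis starting at 0. In these 5 panels the KO and WT points do not overlap, and the levels run from 0.472 CPM for Cox8c in KO 1 to 241 CPM for Sdha in KO 1.

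Atp5s, the coupling factor, was measured at 7.24 and 4.78 CPM in KO and 8.6 and 8.16 CPM in WT. It was lower in both KO libraries and not called (log2 fold change -0.48, SE 0.34, adjusted p 0.404, edgeR). Its interval and those of Cox6a2, Sdhd, Atp5g2, Cox8c, Cox4i2, Cox7b2 and Cox6b2 were among the 9 that reached past a 2-fold change.

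The summed level of each complex differed by less than 10% between groups. Complex I summed to 5872 and 5867 CPM in KO and 5593 and 5663 CPM in WT. Complex II summed to 708.9 and 718.6 CPM in KO and 656.4 and 648.2 CPM in WT, and complex III to 2440 and 2480 CPM in KO and 2289 and 2262 CPM in WT. In these 3 complexes both KO sums were above both WT sums, with KO over WT ratios of 1.04, 1.09 and 1.08. Without Uqcrq the complex III sums averaged 1840 CPM in KO and 1815 CPM in WT, a ratio of 1.01. Without Sdhb, its most counted gene, the complex II ratio was 1.11.

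The other sums differed less. Complex IV gave 5967 and 5795 CPM in KO and 6029 and 5702 CPM in WT, which overlapped. Complex V gave 6572 and 6490 CPM in KO and 6400 and 6414 CPM in WT, a ratio of 1.02, and without Atp5g3 the means were 5280 CPM in KO and 5282 CPM in WT. No test was made on these sums, since with 2 libraries against 2 an exact permutation test cannot pass the threshold.

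**Figure D5:**
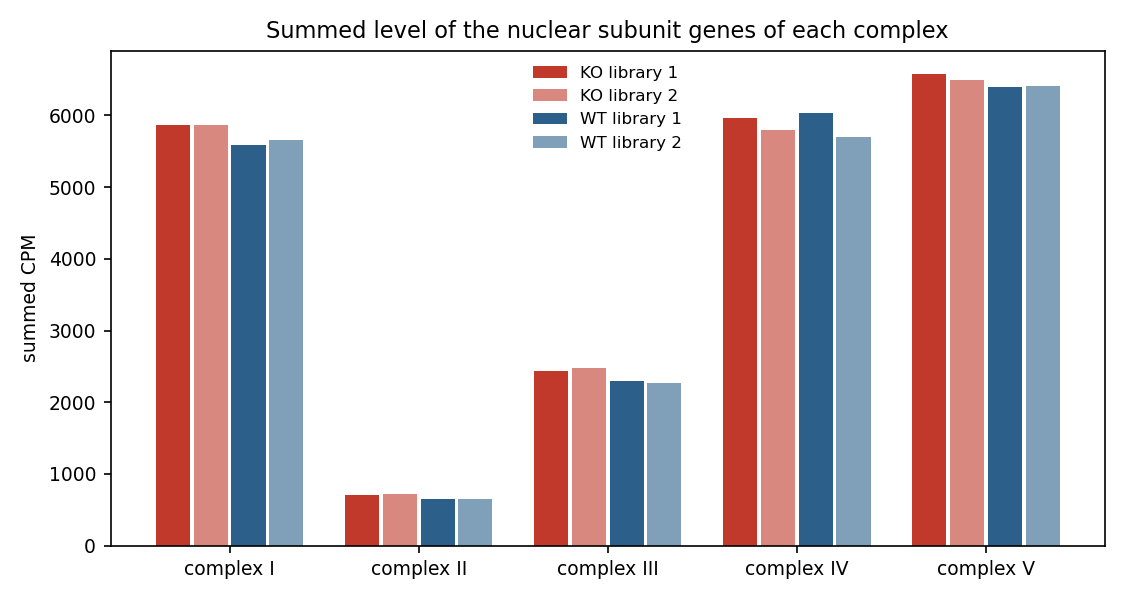
Summed CPM of the nuclear subunit genes of complexes I to V in each library (bars, KO left of WT, axis from 0). The KO and WT bars of each complex are nearly level, with complex II showing the largest ratio, 713.8 ± 6.86 CPM in KO against 652.3 ± 5.81 CPM in WT (SD, n = 2 each).

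Promoters of respiratory genes are known to bind NRF1, ETS-family factors such as GABPA, and YY1. RefSeq promoters (GRCm38.p6, 250 bases before the start to 50 after it) were matched for 66 members and searched on both strands. GCGCATGCG, an NRF1 motif, was in the promoters of 8 (12.1%), against 1.95% of all 27025 genes with a promoter in the table. This background was not limited to genes expressed or tested here. AAGATGGCG, a YY1 motif, was in 7 (10.6%), against 1.64%, and CCGGAAGT, an ETS motif, was in 5 (7.58%), against 4.31%. At least 1 of the 3 was in 19 members (28.8%), against 7.48% of all these genes. Only Uqcr11 held more than 1 kind. Cox6a2 and Cox8c had no matched promoter, and those of Sdha and Sdhd held none of the 3 motifs.

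The promoter of Atp5g2 (chr15:102670998-102671297, minus strand) is shown because it is the only called gene among the 19, with the overlapping NRF1 matches of both strands in capitals. The promoter of Uqcr11, a small subunit of complex III (chr10:80406772-80407071, minus strand), is shown beside it with its ETS and NRF1 matches in capitals, in that order.
Atp5g2: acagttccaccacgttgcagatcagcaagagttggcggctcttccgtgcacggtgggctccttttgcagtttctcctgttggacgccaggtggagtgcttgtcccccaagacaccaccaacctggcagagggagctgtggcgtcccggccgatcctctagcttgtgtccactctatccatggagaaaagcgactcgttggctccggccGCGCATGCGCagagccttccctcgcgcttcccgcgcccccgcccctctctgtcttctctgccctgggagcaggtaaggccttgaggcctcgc
Uqcr11: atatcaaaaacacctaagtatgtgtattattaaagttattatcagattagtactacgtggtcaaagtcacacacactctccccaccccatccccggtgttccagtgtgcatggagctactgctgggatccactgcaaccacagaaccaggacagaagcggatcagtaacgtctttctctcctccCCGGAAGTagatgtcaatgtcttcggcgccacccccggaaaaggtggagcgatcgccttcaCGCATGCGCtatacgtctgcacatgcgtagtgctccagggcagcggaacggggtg

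Uqcr11 measured 99.1 and 103 CPM in KO and 103 and 96.5 CPM in WT, overlapping (log2 fold change 0.02, adjusted p 0.962, edgeR). Members with an NRF1 motif had a median log2 fold change of -0.10, those with an ETS motif 0.02 and those with a YY1 motif 0.14. The 45 tested members with none of the 3 in their promoter had a median of 0.04. The 12 tested transcriptional regulators of respiration, which include Nrf1, Gabpa, Yy1, Esrra and Tfam, had 0 calls by edgeR and 0 below an unadjusted p of 0.05, and a median of -0.07. Ppargc1a, the coactivator that drives mitochondrial biogenesis in muscle and fat, had 0 counts in all libraries.

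Genes that assemble the complexes were called in both directions by edgeR's quasi-likelihood test, and each of these calls was lost without KO 2. For complex I, 17 assembly factors were tested, 2 rose (Tmem126b and Ndufaf5), 1 fell (Ecsit), and the median log2 fold change was -0.12. The called share was 17.6%, against 12.4% over all tested genes. Tmem126b and Ecsit, which act in the same assembly intermediate, went in opposite directions: Tmem126b was at 30.9 and 32.9 CPM in KO and 17.8 and 14.2 CPM in WT (log2 fold change 0.99, adjusted p 0.0203). Ecsit was at 24.4 and 24.7 CPM in KO and 40.9 and 50.2 CPM in WT (-0.89, adjusted p 0.021). Ndufaf5 had a log2 fold change of 0.83 (adjusted p 0.0399). All 3 calls were lost without KO 1 and without KO 2, with adjusted p values between 0.0523 and 0.353, and Ndufaf5 also without WT 1 (0.0568).

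Of the 4 complex II assembly factors, Sdhaf3, which helps to mature the iron-sulphur subunit, fell (7.87 and 9.3 CPM in KO, 16.8 and 16.6 CPM in WT; log2 fold change -0.96, adjusted p 0.0438, edgeR). For complex IV, 20 factors were tested, 2 rose (Coa7, 0.86, and Cox20, 0.91) and 1 fell (Cmc1, -0.82), with a median of -0.16. The adjusted p values of Coa7, Cox20 and Cmc1 were 0.0198, 0.0347 and 0.0265 (edgeR). The called share was 25% of the 4 complex II factors and 15% of the 20 complex IV factors, against 12.4% over all tested genes. The 6 complex III and 4 complex V factors had 0 calls by edgeR, with 1 and 0 below an unadjusted p of 0.05, and medians of 0.16 and 0.02. Without KO 2 the calls of Sdhaf3, Coa7, Cox20 and Cmc1 were all lost (adjusted p 0.142, 0.127, 0.285 and 0.234), and without KO 1 those of Sdhaf3, Coa7 and Cmc1 (0.277, 0.0606 and 0.11).

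For the assembly lists and the lists that follow, the DESeq2 test gave the same numbers of risen and fallen genes as edgeR, except that 2 genes rose and 1 fell in the citric acid cycle list. Vdac3, a pore of the outer membrane, averaged 104 ± 7.57 CPM in KO and 47.5 ± 1.83 CPM in WT (SD, n = 2 each). Its log2 fold change was 1.14 (adjusted p 0.00345, edgeR), the 1 call among 7 nucleotide, phosphate and outer membrane carriers (14.3%). Cs, citrate synthase, averaged 296 ± 8.73 CPM in KO and 199 ± 14.8 CPM in WT (log2 fold change 0.57, adjusted p 0.0308, edgeR). It was the 1 call among 18 genes of the citric acid cycle and pyruvate dehydrogenase (5.56%). Idh2 (1.05, adjusted p 0.0513, edgeR) and Suclg2 (-1.36, adjusted p 0.0526, edgeR) differed more and narrowly missed the threshold. Their WT libraries lay apart, at 72.7 and 162 CPM for Idh2 and 57.3 and 22.4 CPM for Suclg2. Without KO 1 and KO 2 the adjusted p of Cs was 0.164 and 0.218. The 4 genes of supercomplex formation and respiratory adaptation had 0 calls by edgeR, with 0 below an unadjusted p of 0.05, and a median of -0.18.

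Among 7 electron carriers, Etfb, which takes electrons from fatty acid oxidation, rose (158 and 167 CPM in KO, 98.1 and 85.3 CPM in WT; log2 fold change 0.82, adjusted p 0.0111, edgeR). Dhodh, of pyrimidine synthesis, fell (-0.67, adjusted p 0.0468, edgeR), as did the testis cytochrome c Cyct (-1.55, adjusted p 0.0366, edgeR). Of the 7 carriers 42.9% were called, against 12.4% of all tested genes. The somatic cytochrome c gene Cycs did not pass, at 29.6 and 33.6 CPM in KO and 33.8 and 35.8 CPM in WT (-0.14, adjusted p 0.691). Without KO 1 the calls of Cyct (0.183) and Dhodh (0.22) were lost, without KO 2 those of Etfb (0.0769) and Dhodh (0.324), and without WT 2 that of Cyct (0.0772).

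Counts of the mitochondrially encoded subunits were uneven, and 5 of the 13 genes had at most 2 counts in any library. The cause of this unevenness was not tested. Of the 8 tested, 0 rose and 2 fell by edgeR's quasi-likelihood test, with a median log2 fold change of -0.28. The called share was 25%, against 12.4% over all tested genes. The complex I gene mt-Nd2 was at 3580 and 3130 CPM in KO and 4870 and 6000 CPM in WT (-0.70, adjusted p 0.0158), and this call was lost without KO 2 (-0.60, adjusted p 0.0681). The light-strand gene mt-Nd6 was at 34.8 and 20.1 CPM in KO and 65.8 and 94.3 CPM in WT (-1.54, adjusted p 0.00938). With the median of all tested genes of the mitochondrial chromosome subtracted, mt-Nd2 stood at 0.48 and mt-Nd6 at -0.37. That median was not limited to the 8 subunit genes, and both genes lay below the -0.28 median of those 8. The share of counts on the mitochondrial chromosome was 5.08% and 4.93% in KO and 6.02% and 5.58% in WT, lower in both KO libraries, whereas the share of the nuclear members given above was slightly higher in both. That contrast was not tested.

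Near-identical copies limit some of these values. Of the 85 members, 23 (27.1%) have at least 1 annotated gene with 97% identity over 75 or more of the last 300 bases of the transcript, most of them processed pseudogenes. Among the called members only Atp5g2 is of this kind, and Atp5l, with 9 copies, had the most (23.3 and 23.5 CPM in KO, 31.9 and 23.4 CPM in WT). The annotated copy of the untested Ndufs5 held 42 and 38 counts in KO and 43 and 33 in WT, more than Ndufs5 itself. How reads that match several genes were counted is not given in the sources used here.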

How the data were processed

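Poly(A) RNA was sequenced as 2 KO and 2 WT libraries made with the QuantSeq 3′ FWD kit, per the labels' protocols. The authors deposited whole-number gene counts, not normalized, in 1 table for all 4 libraries. The submitters' processing notes list Trim Galore and GRCm38. Which aligner and counter were used, and with which strand setting, is not given in the sources used here. GENCODE vM21 named 55240 of 55421 identifiers, and the 181 others held 0.0025% of counts and stayed in the fitted table without a name. No library repeated another (chi-square per degree of freedom 11.3 and 18.9 within KO and WT, 37.1 to 45.4 between them).

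KO was compared with WT over the whole table by edgeR 4.0.16 (R 4.3.3): TMM, filterByExpr, two-sided quasi-likelihood F test, Benjamini-Hochberg over 14427 genes. The biological coefficient of variation was 0.198. CPM values are on the TMM scale, errors are SD, and standard errors are the log2 fold change over the square root of F. A floor of 3 counts was 0.236 to 0.302 CPM per library. Floors and intervals cover counting error only, since the counts are of reads and not of molecular identifiers. Copies of 3′ ends were found with BLAST 2.17.0. Counts for KO against WT were simulated with the same dispersion for every gene, and 14444 genes were tested. Changes were placed in genes above a lower limit of mean CPM. Of these, 5.97% of genes changed 1.5-fold, 37.3% changed 2-fold and 97% changed 4-fold were recovered. Of unchanged genes, 0% were called.

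Named members were those called, the 2 largest changes with a mean of at least 5 CPM and the most counted gene in each complex, the isoform families, Ndufa4 and Atp5s. Of the members called, 1 is not reported here. The called genes of each pathway list were also named, at most 4 a list. Ndufs4, Ndufs6, Ndufa7, Ndufb8, Sdhc, Cox5b, Cox6c, Cyc1, Uqcrfs1, Uqcr11, Atp5a1, Atp5b, Atp5l, Cycs, Ppargc1a, Idh2 and Suclg2 fall outside this rule. Their values were known when they were chosen, as were those of the untested members. Members and lists were chosen with earlier results of these data known. The alternatives were DESeq2 1.42.0 (size factors, test), other filters, a replicate block, thinning, left-out gene classes, chromosome medians and left-out libraries.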

Additional observations from a re-analysis of the deposited data

How the results depend on the processing

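The signs of all 6 called members held in each of their 69 refits, of which 51 kept the call and 18 did not. Of 249 refits of the 21 other named members, 10 passed the threshold (9 by edgeR and 1 by DESeq2) and 4 changed sign without passing it, by edgeR. Over the left-out libraries Atp5g1 ran from -0.129 to 0.242 and Cox7c from -0.157 to 0.035, negative and positive without WT 1, and Cox6b2 ran from -0.954 to 0.132 and Cox8a from -0.175 to 0.282, positive and negative without WT 2. All 14 called pathway genes kept their sign in 165 refits with a test, of which 133 kept the call. The median of all tested genes of the mitochondrial chromosome, not of subunit genes alone, was also subtracted. This put mt-Nd2 at 0.476 (main fit -0.696) and mt-Nd6 at -0.369 (main fit -1.54).

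With a mean CPM of at least 10, which leaves Cox6a2, Atp5g2 and Cox8c untested, 1 member rose and 1 fell, and over all genes 636 rose and 391 fell, against 1071 and 715 in the fit reported above. With no filter 1193 genes fell. Leaving out each library in turn gave 1 to 6 risen and 1 to 5 fallen members, and 556 to 1477 risen and 285 to 1011 fallen genes overall. The members' median log2 fold change then ran from -0.005 to 0.058. The median of complex I ran from 0.04 to 0.087, of complex II from 0.121 to 0.199, of complex III from -0.034 to 0.069, of complex IV from -0.043 to 0.046 and of complex V from -0.025 to 0.02. Thinned to equal depth the complex I median was 0.067. With chromosome medians subtracted the medians were 0.031 for complex I, 0.038 for complex II and 0.045 for complex V. With its most counted gene left out, the log2 ratio of summed CPM was 0.048 for complex I, 0.019 for complex III and -0.001 for complex V, against 0.061, 0.112 and 0.028. It went up for complexes II and IV, to 0.145 and 0.022, against 0.13 and 0.004. The cause of these movements was not tested.

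The titles number the libraries 1 and 2 in both groups. Over genes, deviations of same-numbered libraries from their group means correlated at -0.0703. This does not tell whether such libraries were grown or prepared together, and the main fit left them unpaired. With the replicate block 2 members rose, Cox6a2 among them, and 2 fell (Sdhd and Atp5g2), Sdha and Cox8c had adjusted p values of 0.0751 and 0.0762 (edgeR), and 638 genes rose and 370 fell overall. Of the 14 called pathway genes, 8 missed the threshold with the block: Coa7, Tmem126b, Cs, Cmc1, Ndufaf5, Sdhaf3, Dhodh and Cox20, with adjusted p values of 0.051 to 0.0882 (edgeR). Of the assembly lists, 1 call was then left (Ecsit).

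Depth limits the tissue isoforms: Cox4i2, Cox7b2 and Cox8c held at most 50 counts in any library. The simulation gave every gene the same dispersion and placed changes only above a lower limit of mean CPM. Its rates therefore do not speak for genes of such low counts. In the simulated data for KO against WT, 5.97% of 1.5-fold, 37.3% of 2-fold and 97% of 4-fold changes were called.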
